A study of Homo sapiens with 4 samples.

Results

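The kallikrein genes KLK1, KLK15, KLK3, KLK2 and KLK4 lie next to each other on the long arm of chromosome 19, and HOXB13 binding over a window of 200 kb that holds them was examined. Binding had been mapped by ChIP-seq (sequencing of DNA immunoprecipitated with an antibody to HOXB13) in LNCaP, a human prostate cancer cell line that responds to androgens. Cells were maintained with 10% FBS (fetal bovine serum) and, for the treatment, grown in medium with 5% CSS, in its usual meaning charcoal-stripped, steroid-depleted serum. They had received either 50 µM GSK2879552, which inhibits LSD1 (KDM1A), for 4 hours, or vehicle. The treatment text names the inhibitor for all 4 samples, so the vehicle group rests on titles and descriptions. Each treatment was 1 library run on 2 lanes, with 1 peak list for both lanes. Neither treatment was replicated, and every value describes these libraries.

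Peaks were taken as belonging to the window when their summit, the position of highest pileup, lay between 51.27 and 51.47 Mb of chromosome 19 (hg19). This gave 13 of the 68725 peaks of the GSK2879552 list and 1 of the 3722 peaks of the vehicle list. Position alone chose them. KLK3 spans 51358171 to 51364020 and KLK2 spans 51376689 to 51383823, with 12.7 kb between them. Positions of KLK1, KLK15 and KLK4 in this build were not used here. Their order in RefSeq is KLK1, KLK15, KLK3, KLK2, the pseudogene KLKP1 and KLK4. A peak is therefore placed below as on the KLK15 side of KLK3 or on the KLK4 side of KLK2. Expression was not measured, so neither the cell line's markers nor any effect on the genes was examined.

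The kallikreins are secreted serine proteases. KLK3 encodes prostate-specific antigen, which liquefies semen by cutting semenogelins and is the blood marker of prostate disease. KLK2 encodes a close relative that can activate the precursor of prostate-specific antigen, KLK4 encodes a protease known from prostate and developing tooth enamel, and KLK1 encodes tissue kallikrein, which releases kinins. In the prostate, KLK3 and KLK2 are classic targets of the androgen receptor, which binds both at their promoters and at enhancers a few kilobases upstream. HOXB13 is a homeobox factor of the prostate that binds many of the same regulatory elements as the androgen receptor. LSD1 removes methyl groups from histones and acts with both repressor complexes and the androgen receptor.

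The promoters of KLK3 and KLK2 are shown because the only site present in both lists covered the start of KLK3, while no listed peak reached the start of KLK2. Both stretches are the 250 bases before the gene start in RefSeq (GRCh38.p14, plus strand), chr19:50854665-50854914 for KLK3 and chr19:50873189-50873438 for KLK2. Capitals mark TTTAT, a core of letters bound by HOX factors of the HOXB13 type, searched on both strands.
KLK3: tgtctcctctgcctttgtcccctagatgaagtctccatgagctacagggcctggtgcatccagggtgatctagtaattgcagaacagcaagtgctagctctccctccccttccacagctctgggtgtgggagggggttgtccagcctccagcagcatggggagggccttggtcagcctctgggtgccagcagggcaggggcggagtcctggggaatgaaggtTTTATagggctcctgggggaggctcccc
KLK2: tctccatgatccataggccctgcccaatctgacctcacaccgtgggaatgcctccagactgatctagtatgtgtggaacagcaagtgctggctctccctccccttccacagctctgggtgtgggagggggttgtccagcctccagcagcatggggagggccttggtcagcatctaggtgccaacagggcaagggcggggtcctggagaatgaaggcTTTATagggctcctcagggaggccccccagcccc
The KLK3 match lay 28 to 24 bases before the gene start, where it overlaps the TATA box known for this promoter. The KLK2 match lay 34 to 30 bases before the start of KLK2 annotated in RefSeq. KLK2 is 7129 bp long there, against 7135 bp for the span used to place peaks, so its start may differ between them. The letters TTTAT are common, and 32.7% of 35116 RefSeq promoter stretches of 250 bases hold them. The related core TTTAC (25.2% of stretches) and the longer HOXB13 letters CCAATAAA (0.863%) matched neither promoter. AGAACA, a half-site of the androgen receptor, matched KLK3 at 170 to 165 bases before the start, inside the androgen response element known there. KLK2 held no exact match, but its like stretch reads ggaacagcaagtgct where KLK3 reads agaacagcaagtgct. A search for exact letters therefore does not show that KLK2 lacks the element. AGAACA is found in 12.4% of stretches. The promoters of these paralogs are alike: 211 of 263 alignment positions, or 80.2%, were identical. How reads that match both genes were treated was not stated. Of the other members, KLK15 and KLK4 had promoters in the table. Each has a pair of annotated starts. TTTAT occurred at both KLK15 starts and at neither KLK4 start.

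HOXB13 peaks covered the start of KLK3 in both libraries. In the GSK2879552 list the peak ran from 51358025 to 51358322, from 146 bp before to 151 bp after the gene start. In the vehicle list it ran from 51358122 to 51358240, from 49 bp before to 69 bp after the start. The vehicle peak lay wholly within the other. The GSK2879552 summit stood 32 bp before the start of KLK3, 4 bp from the nearest base of the TTTAT match. The vehicle summit stood 23 bp after the start, 47 bp from that match. The AGAACA match lay outside both peak intervals. Promoter letters and peaks were set side by side by their distance from the gene start, since KLK3 has the same length of 5850 bp in both builds, and no coordinate was converted.

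**Figure D1:**
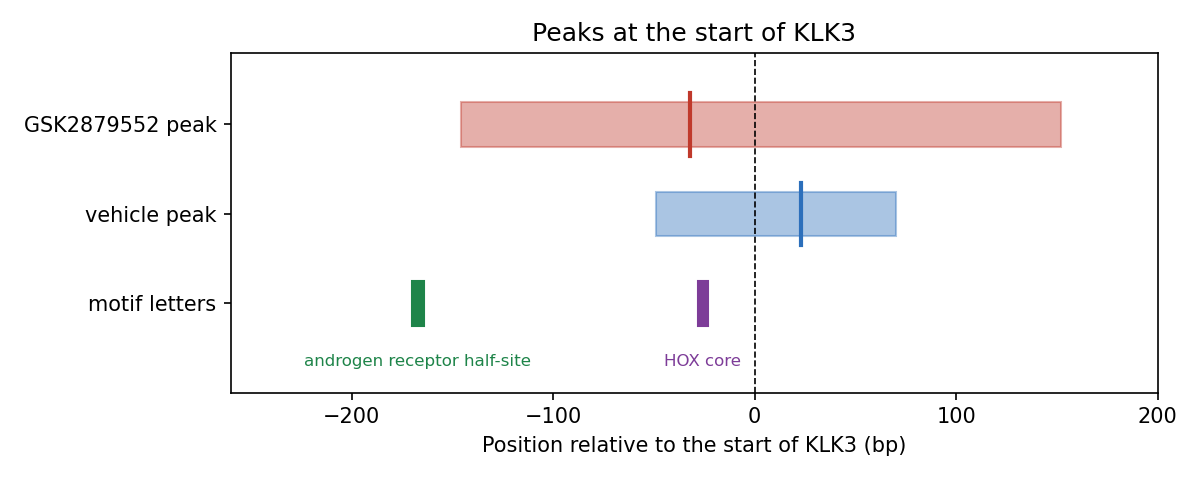
Peak intervals (shaded) and summits (vertical lines) of the GSK2879552 and vehicle lists around the start of KLK3 (dashed line), with position in bp on the horizontal axis and the promoter's motif matches below. The GSK2879552 summit lies 32 bp before the start and the vehicle summit 23 bp after it, and the androgen receptor half-site lies outside both intervals.

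The size of the KLK3 peak can be read from each library on its own scale. The authors' fold enrichment, the pileup at the summit plus 1 over the local background plus 1, was 7.12 with GSK2879552 and 7.33 with vehicle. Without the added 1, the ratio of pileup to local background was 8.62 with GSK2879552 and 20 with vehicle. The near-equal fold enrichments thus depend on the added 1, which weighs more at the low background of the vehicle library. Behind these stood a pileup of 35 overlapping extended tags (exact 95% Poisson interval 24.4 to 48.7) with GSK2879552 and 10 (4.80 to 18.4) with vehicle. Intervals here and below cover counting error only. Local background at KLK3 was 292 tags per 10 kb with GSK2879552 and 50.0 with vehicle, while the genome-wide background was 201 and 44.3 tags per 10 kb in these libraries. The pileups stood in a ratio of 3.50 (exact 95% interval 1.70 to 7.92), the local backgrounds in tags per 10 kb in a ratio of 5.84 and the genome-wide backgrounds in a ratio of 4.54. Tags had been extended to 139 bp with GSK2879552 and to 100 bp with vehicle, so pileups are not on the scale of tags. The ratios in tags per 10 kb therefore cannot be set against the ratio of pileups. On the scale of pileups, the genome-wide backgrounds stood in a ratio of 6.31. For the local background, the like-scale values are the ratios of pileup to local background, 8.62 with GSK2879552 and 20 with vehicle. On that scale both backgrounds differed more between the libraries than the KLK3 pileups did. Relative to the genome-wide background pileup, the peak stood at 12.5 (8.73 to 17.4) with GSK2879552 and at 22.6 (10.8 to 41.6) with vehicle, and these intervals overlap. A list shows a site only where it passed in that library, which favours high values among the few vehicle peaks. Treatment and depth cannot be told apart in these values.

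The KLK3 peak stood in the upper part of both lists on chromosome 19. It was number 88 of the 1105 GSK2879552 peaks by fold enrichment, above 92.0% of them, and number 12 of the 68 vehicle peaks, above 82.4%. By pileup, with ties given the best rank, it was number 78 of the GSK2879552 peaks and number 24 of the vehicle peaks. Lists of such unequal length do not show a change by their ranks.

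The peaks nearest to KLK2 lay upstream of it, between KLK3 and KLK2. A pair of GSK2879552 peaks had summits 4.095 and 3.767 kb before the start of KLK2. The first, at 51372525 to 51372691, had a pileup of 17 and was enriched 3.84-fold. The second, at 51372787 to 51373001, had a pileup of 24 and was enriched 5.34-fold, the third highest value of the window. Their summits were 328 bp apart and they shared a local background of 265 tags per 10 kb. No peak of either list overlapped KLK2 itself or its promoter.

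By contrast, no peak lay a few kilobases upstream of KLK3, where its androgen-responsive enhancer is known. The nearest GSK2879552 peak on that side ended 12.3 kb before the start of the KLK3 promoter peak. It ran from 51345378 to 51345683, was enriched 5.15-fold at a pileup of 24, and at 306 bp was the widest of the 13. A narrow peak of 144 bp at 51340700 to 51340843, 17.4 kb before the start of KLK3, was enriched 4.26-fold at a pileup of 21. Absence from a list shows only that a site did not pass there.

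The highest peak of the window lay on the KLK4 side of KLK2. It ran from 51392957 to 51393214, with its summit 9.25 kb past the end of KLK2, the side where KLKP1 is the next gene in RefSeq order. Its fold enrichment was 8.16 and its pileup 38 (26.9 to 52.2), number 47 on chromosome 19 and above 96.9% of the whole GSK2879552 list. No vehicle peak was listed at this site. Weaker peaks followed on this side, at 51394017 to 51394155, 51401691 to 51401875, 51404741 to 51404938 and 51433300 to 51433463. Their fold enrichments were 3.27, 4.17, 4.60 and 3.40, with pileups of 14, 16, 18 and 13. The first of them was the weakest of the window and as narrow, at 139 bp, as any peak of its list.

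The remaining 3 peaks lay far out on the KLK15 side. They were at 51285756 to 51285970, 51307794 to 51307964 and 51308166 to 51308310, between 72.3 and 49.9 kb before the start of KLK3. Their fold enrichments were 5.27, 4.44 and 4.05 and their pileups 19, 18 and 16. The last pair stood 426 bp apart. In all, 3 of the 12 distances between neighbouring summits in the window were at most 1 kb. On chromosome 19, 62 of 1103 were (5.62%). Peaks were also closer in the window in general, with a median distance of 10.2 kb against 26.6 kb on the chromosome. The part of this density in the short distances was not tested. Whether a pair at most 1 kb apart is 1 site or 2 was not examined.

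**Figure D2:**
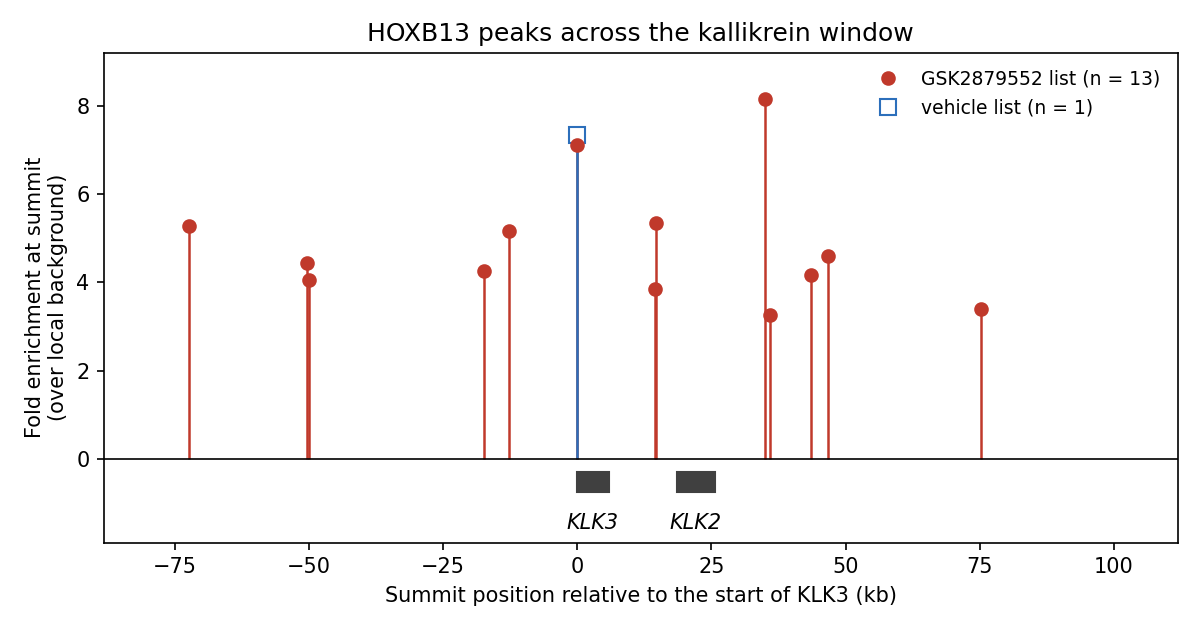
Fold enrichment at the summit, over the local background of the same library, for each HOXB13 peak of the kallikrein window, by summit position in kb from the start of KLK3. Filled circles are the 13 GSK2879552 peaks, the open square is the vehicle peak, and grey bars are KLK3 and KLK2. The highest GSK2879552 peaks are those past KLK2 (8.16) and at the start of KLK3 (7.12), where the vehicle peak (7.33) also lies.

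Apart from those at KLK3 and past KLK2, the kallikrein peaks were ordinary in height. The median fold enrichment of the 13 was 4.44, against 4.39 for the other 1092 GSK2879552 peaks of chromosome 19 and 4.22 for all 68049 of the placed chromosomes. The median pileup was 18 in all 3 sets, and the median width was 185 bp in the window and 197 bp on the rest of the chromosome. A fold enrichment of at least 5 was reached by 5 of the 13 (38.5%) and by 32.2% of the other peaks of chromosome 19.

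Of the 13 GSK2879552 peaks, 1 had an overlapping vehicle peak, a share of 7.69% (exact 95% binomial interval 0.195 to 36.0) against 4.59% of the GSK2879552 peaks of all placed chromosomes. On chromosome 19 the share was 5.43% (4.17 to 6.93). The window's share thus lay near the background. In the other direction, the only vehicle peak had a GSK2879552 partner, as did 91.2% of all vehicle peaks.

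Whether a site was in both lists went with its pileup. Of all GSK2879552 peaks with a pileup of 10 to 19, 0.579% (0.507 to 0.657) had a vehicle peak. The share was 2.94% (2.70 to 3.19) at 20 to 29 and 12.1% (11.2 to 13.0) at 30 to 39. The window held 8, 3 and 2 peaks in these classes. Of the 2 in the highest class, the KLK3 peak had a vehicle partner and the peak past KLK2 had none. Among all peaks with the pileup of the KLK3 site, 35, a vehicle peak was found at 64 of 421 (15.2%, 11.91 to 18.99), and at the pileup of the site past KLK2, 38, at 63 of 306 (20.6%, 16.2 to 25.6). Divided by the ratio of the genome-wide background pileups, 6.31, the 13 pileups came to between 2.06 and 6.02, and 11 of them lay under 5, the lowest pileup of any vehicle peak. These 11 include the pair upstream of KLK2, where a pileup of 24 comes to 3.803. The scaled values and the count of 11 rest on that divisor, and a smaller one could leave fewer under 5. At KLK3 the scaled value was 5.55 while 10 was observed. On chromosome 19 the lowest pileup of a vehicle peak was 6, which of the 13 scaled values only the highest, 6.02, reached. Neither the part of counting error at KLK3 nor the part of depth in the missing vehicle peaks was tested.

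**Figure D3:**
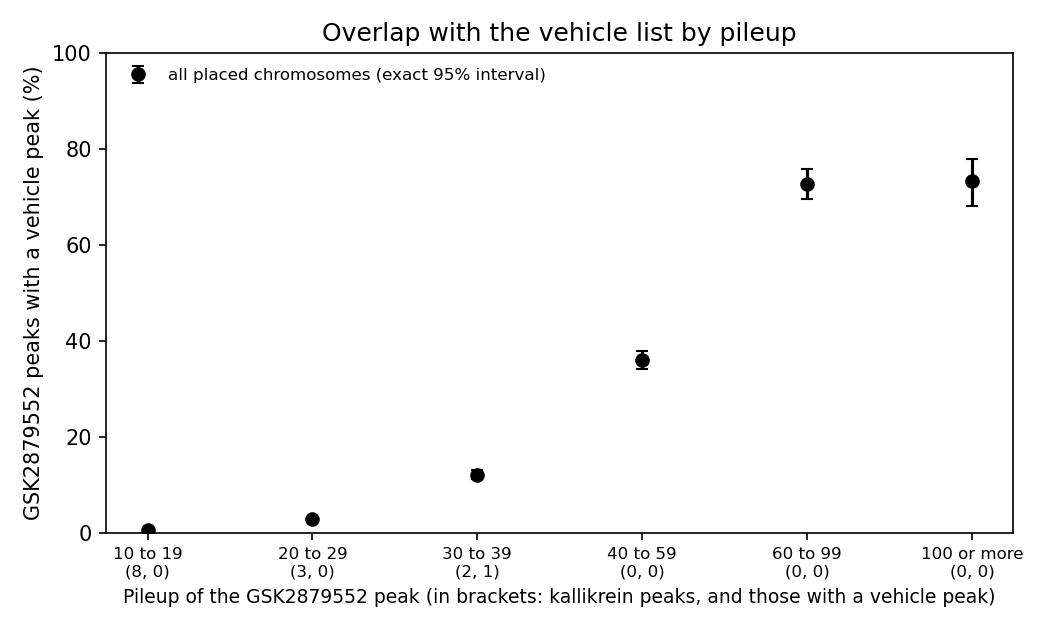
Share of GSK2879552 peaks of all placed chromosomes with an overlapping vehicle peak (points, with exact 95% binomial intervals) in classes of pileup. Brackets under each class give the number of kallikrein peaks and, of those, the number with a vehicle peak: 11 of the 13 are in the lowest classes, under a pileup of 30, where 0.579% and 2.94% of all peaks had a vehicle peak.

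The kallikrein window was among the densest of its chromosome for HOXB13 peaks. With the rest of chromosome 19 divided into 278 windows of 200 kb, the 13 GSK2879552 peaks compared with a median of 4 (quartiles 2 and 5). Fewer peaks were found in 274 of the other windows (98.6%, 96.4 to 99.6), as many in 1 and more in 3. The 3 denser windows began at 27.67, 24.47 and 33.47 Mb with 25, 15 and 15 peaks. At the first and second of these, the median local background of the peaks was 3.33 and 2.89 times the genome-wide one, against 1.28 times in the kallikrein window and 1.24 times at 33.47 Mb. Local background was also higher in the kallikrein window than in most others: the median over windows with a peak was 1.08, and 85.5% of them were lower. The part of this background in the number of peaks was not tested, and DNA copy number was not examined. Among 14340 windows of 200 kb over all placed chromosomes, 97.98% had fewer GSK2879552 peaks.

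In the vehicle list the window held its 1 peak while 228 of the 278 other windows held none, 44 held 1 and 6 held more. That peak was the first after the longest stretch of chromosome 19 without a vehicle peak. The next vehicle peak below it was 9.93 Mb away, the longest of 67 intervals, whose median was 479 kb, and the next above it was 122 kb away. In the stretch below KLK3 the GSK2879552 list held 98 peaks without a vehicle peak. Lacking a vehicle peak is what defines the stretch. The median pileup of the 98 was 17.5. A pileup of 30 was reached by 4 of them, the highest at 37, and by 132 of the 1105 GSK2879552 peaks of the chromosome, of which 48 had a vehicle peak. The GSK2879552 list was sparse there as well, with 9.87 such peaks per Mb against 18.7 peaks per Mb over the chromosome.

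**Figure D4:**
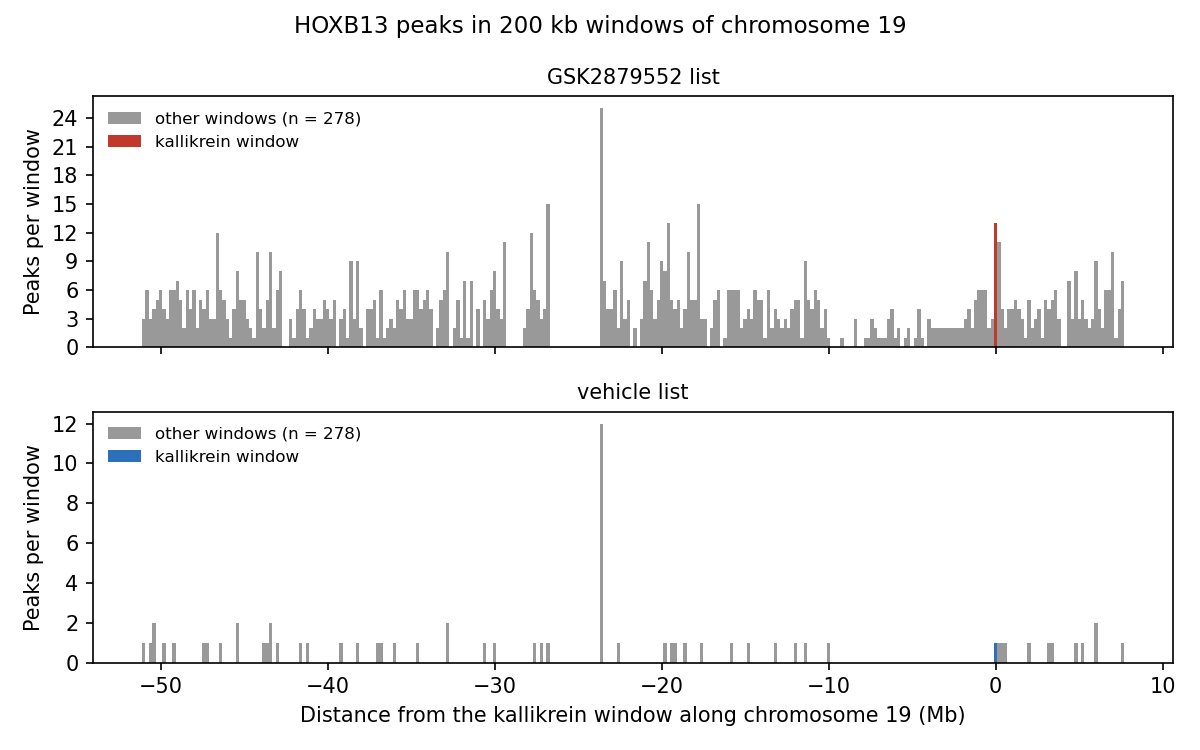
HOXB13 peaks per 200 kb window of chromosome 19 in the GSK2879552 list (upper panel) and the vehicle list (lower panel), by distance in Mb from the kallikrein window, which is coloured. The kallikrein window holds 13 GSK2879552 peaks and 1 vehicle peak, and no vehicle peak lies in the 9.93 Mb below KLK3.

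The high density covered the kallikrein window and the next window on the KLK4 side. The 3 windows next to it on the KLK1 side held 6, 2 and 3 GSK2879552 peaks, in order along the chromosome, and no vehicle peak. On the KLK4 side the next window held 11 GSK2879552 peaks and 1 vehicle peak, so that it and the kallikrein window together held 24 GSK2879552 peaks and 2 vehicle peaks. The following windows on that side held 4 and 2 GSK2879552 peaks, at or under the chromosome's median, and 1 vehicle peak each. RefSeq order continues there with KLK5 to KLK14, whose positions in this build were not used here. At the lower edge, the nearest GSK2879552 peaks lay 15.9 and 37.8 kb inside with fold enrichments of 5.27 and 4.44, and 6.67 and 41.0 kb outside with 4.48 and 3.69. At the upper edge, they lay 36.6 and 65.2 kb inside with 3.40 and 4.60, and 9.89 and 12.9 kb outside with 4.202 and 6.33. The peak just outside the upper edge, at 51479815 to 51480113, had a vehicle partner at 51479884 to 51480014 enriched 6.54-fold at a pileup of 9.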

How the data were processed

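The 2 deposited peak lists hold 1 row per peak and, per the labels, 1 list serves both lanes of a treatment. MACS2 2.1.2, BWA 0.7.2 and SAMtools 0.1.18 appear in the submitters' processing notes, which name hg19 and GRCh37 as builds and give no roles. No source used here states an input control, filters on reads or options of the peak caller. The fold enrichment (a ratio), the −log10 p-value, the −log10 q-value, the score and the summit offset in bp are the authors' deposited values for each peak. Fold enrichment was ranked and summarized only within a list, and at KLK3 the values of both lists were shown side by side.

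Pileup k and local background λ were solved for each peak: the fold enrichment equals (k + 1)/(λ + 1), and the deposited p-value is the Poisson chance of more than k tags. A whole k came within 0.001 on the −log10 scale for 100% of peaks. Backgrounds above the genome-wide one were whole numbers of tags per 10 kb, within 0.05, for 100.0% of peaks. Depth is known only as the genome-wide background, 201 tags per 10 kb with GSK2879552 and 44.3 with vehicle. This holds if that background came from the immunoprecipitated library.

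Shared sites overlap by at least 1 bp. Comparisons used chromosomes 1 to 22, X and Y (68049 and 3507 peaks). Windows of 200 kb were laid from the kallikrein window, leaving out those inside peak-free intervals of at least 2.5 Mb. With 1 library per treatment no test was run. Intervals are exact at 95%. Peaks described in full followed a rule: a partner, within 10 kb of KLK3 or KLK2, among the 3 highest, or next to an edge; the others are given briefly. The members and lists were chosen with earlier results of these data known, and the stretch without vehicle peaks was noticed in the data. Routines were tested on simulated data. Promoters came from RefSeq (GRCh38.p14) for 4 of the 5 genes, all but KLK1, and were aligned globally. Tools were Python 3.11.15, numpy 2.4.6, scipy 1.17.1, pandas 2.3.3 and Biopython 1.88.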

Additional observations from a re-analysis of the deposited data

How the results depend on the processing

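The number of kallikrein peaks in the GSK2879552 list depended on the threshold. The 13 peaks became 8 at a −log10 q of at least 5 and 5 at a fold enrichment of at least 5. The median −log10 q was 5.95 for the 13 and 5.20 for the list over all placed chromosomes. There, 26.6% of peaks reached a fold enrichment of at least 5. Only 1 of the 13 remained when the list was cut to its best peaks by −log10 p, in the vehicle list's number. It was the peak past KLK2, with a −log10 p of 25.4 against 21.4 at KLK3. The KLK3 site was thus not in the shortened list. The share of chromosome 19 windows with fewer GSK2879552 peaks stayed between 97.8% and 99.3% under those thresholds of −log10 q and fold enrichment and under other layouts of the windows. It was not computed for the shortened list. The KLK3 pair no longer counted as shared under a reciprocal overlap of 50%, since the vehicle peak is much the narrower. This left 0 shared GSK2879552 and 0 shared vehicle peaks in the window. The share of all peaks still shared under this criterion is not given here. Whether the loss was particular to KLK3 therefore cannot be told. The share of windows with fewer vehicle peaks was 94.2% at a −log10 q of at least 5, against 82.0%. That threshold kept the window's vehicle peak, at 6.55, while the median of the other 67 vehicle peaks of chromosome 19 was 4.27. The median fold enrichment of the kallikrein peaks was 5.21 at that threshold, which drops weak peaks, and 6.44 as pileup over the genome-wide background, a different quantity. No paired analysis was possible because the 2 lanes of each treatment came as 1 list; for the same reason no replicate could be left out. Depth and treatment cannot be told apart in the vehicle list.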
